A study of Mus musculus with 11 samples.

Results

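Fam107a and Cpm were examined as a pair of genes whose transcripts rose steeply in dexamethasone-treated 3T3-L1 adipocytes. The platform annotation gave 1 gene symbol for 3 probe sets of Fam107a and 2 of Cpm, so 5 of 45101 probe sets and 2 of 18193 genes were followed array by array. Both genes were chosen by their intensities in DEX against control, and that difference is therefore described without a test. The 11 arrays were made from a mouse cell line, not from tissue, although the labels give adipose tissue as the source. DEX cells (n = 3) received 20 nM dexamethasone, a synthetic glucocorticoid, for 8 days in 0.01% ethanol. TNF cells (n = 3) received 2 ng/ml of the inflammatory cytokine TNF alpha for 4 days. CI cells (n = 2) received chronic insulin as 4 additions of 10 nM. Control cells (n = 3) are labelled as untreated, and whether they received the ethanol carrier is unclear. All cells were adipocytes differentiated from 3T3-L1 preadipocytes by an established protocol that the labels do not detail, with no genetic change named, and were harvested at the same age after differentiation. Whether replicate arrays stem from separate cultures is not said in the labels. The p-values therefore rest on a spread between arrays that may be technical.

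Glucocorticoids bind the glucocorticoid receptor, a transcription factor that then acts at response elements in DNA and raises or lowers its target genes. Fam107a, also called DRR1, encodes a small protein that binds and bundles actin, and in mouse brain it is known as a gene induced by stress and by glucocorticoids. Cpm encodes carboxypeptidase M, an enzyme tethered to the cell surface by a lipid anchor, which removes a terminal arginine or lysine from peptides such as bradykinin. In human cells it is known as a marker of macrophage differentiation.

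The arrays were close to each other in overall signal, with median intensities of 124.5 to 129.5. Defining adipocyte genes were bright in every group: the adipokine gene Adipoq averaged 21645 ± 453 in DEX, 20890 ± 64.6 in TNF, 21547 ± 57.1 in CI and 22828 ± 510 in control (SD). Of 10 tested adipocyte markers 1 rose and 5 fell in DEX, among them the glucose transporter gene Slc2a4 (-0.80), the lipid synthesis gene Agpat2 (-0.51) and the adipogenic factor genes Pparg (-0.39) and Cebpa (-0.29), where 14% of all genes passed as higher and 13.6% as lower. In TNF 0 rose and 6 fell, among them the adipokine gene Retn (-0.83) and the lipid droplet gene Cidec (-0.64), where 13.9% of all genes passed as higher and 11.3% as lower. In CI 1 rose and 0 fell, against 8.38% and 8.88% of all genes. Their summed intensity was 114800 to 121860 in DEX, 101160 to 103200 in TNF, 122160 to 123320 in CI and 123670 to 124900 in control. Preadipocyte and fibroblast markers fell in DEX, with 8 of 11 tested lower and 2 higher, beside the same shares of all genes. Their summed intensity was 41646 to 48658 in DEX, against 66504 to 79194 in control, and the part of this shift in the results below was not tested. In such bulk samples, a change in the number of cells of a type and a change in RNA per cell cannot be told apart.

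In the RefSeq annotation of GRCm38.p6, Fam107a lies on chromosome 14 (8296270 to 8317607) and Cpm on chromosome 10 (117629500 to 117687352). The RefSeq promoter table lists 1 start for Cpm and, for Fam107a, an upstream start and a pair of internal starts that lie 2 bases apart. The 250 bases before these starts are shown because both genes were high in the glucocorticoid arrays, and capitals mark the 6-base arm of a glucocorticoid response element (AGAACA, or TGTTCT on the other strand).
Fam107a, upstream start, chr14:8317608-8317857, minus strand: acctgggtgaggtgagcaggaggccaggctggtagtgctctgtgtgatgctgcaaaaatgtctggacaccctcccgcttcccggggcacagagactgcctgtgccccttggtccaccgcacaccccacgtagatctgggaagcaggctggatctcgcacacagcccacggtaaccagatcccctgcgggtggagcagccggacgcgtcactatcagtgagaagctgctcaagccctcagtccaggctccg
Fam107a, internal start, chr14:8309780-8310029, minus strand: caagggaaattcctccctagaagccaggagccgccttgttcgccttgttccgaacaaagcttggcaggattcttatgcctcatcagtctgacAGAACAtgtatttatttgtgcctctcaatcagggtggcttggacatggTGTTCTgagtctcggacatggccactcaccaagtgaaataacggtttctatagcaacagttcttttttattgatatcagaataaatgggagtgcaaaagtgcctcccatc
Cpm, chr10:117629250-117629499, plus strand: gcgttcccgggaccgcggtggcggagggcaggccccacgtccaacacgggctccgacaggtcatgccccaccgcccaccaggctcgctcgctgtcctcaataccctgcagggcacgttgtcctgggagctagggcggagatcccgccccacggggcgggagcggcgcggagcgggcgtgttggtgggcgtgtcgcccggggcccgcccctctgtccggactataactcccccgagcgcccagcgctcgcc

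The internal Fam107a window held 2 such arms, 158 and 110 bases before the start. The upstream Fam107a window and the Cpm window held 0. Of 32851 promoter windows of the same length, 16.1% held at least 1 arm on either strand and 1.81% held at least 2. The full palindrome, AGAACA and TGTTCT with any 3 bases between them, was found in 3 of all windows and in none of the Fam107a or Cpm windows. The arms are the ends of that palindrome, so the searches overlap. The windows differed in base composition, with 74.4% G and C for Cpm, 62.8% for the upstream and 45.6% for the internal Fam107a window, against a median of 52.4% over all windows. A match to these letters is a description of the window and does not show a bound site.

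Among 15622 tested genes, each read by its brightest probe set, Fam107a had the largest DEX minus control difference with offsets of 1, 16 and 64. This is a description of the values it was chosen by. Fam107a holds this place on its brightest probe set only. On its brightest probe set (1434202_a_at) it read 5856, 6301 and 5666 in the DEX arrays, against 111.8, 85.4 and 122.4 in TNF, 80.5 and 73.1 in CI, and 103.0, 102.7 and 132.3 in control. The lowest DEX array lay 42.8-fold above the highest of the 8 other arrays. The group mean was 5941 ± 326 in DEX and 112.6 ± 17.0 in control (SD, n = 3 each), a ratio of 52.7. On the scale used for all fits, log2(intensity + 16), the difference was 5.54, which understates the ratio because 16 is added to a low control value.

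The other Fam107a probe sets showed the same split of the arrays with smaller differences. Probe set 1434203_at read 3448, 3495 and 3045 in DEX, 111.6, 113.1 and 121.8 in TNF, 99.2 and 93.1 in CI, and 112.5, 117.2 and 113.5 in control. Probe set 1435918_at read 1207, 1414 and 1062 in DEX, 56.8, 52.1 and 50.5 in TNF, 50.5 and 47.1 in CI, and 55.0, 60.2 and 68.9 in control. Their DEX minus control differences were 4.68 and 4.00 on the log2 scale, with ratios of means of 29.1 and 20.0. Both differences were below the 4.86 of Apoc3, the gene next to Fam107a in the order above. In all 3 probe sets every DEX array stood above every control array, as for 21.8% of all genes tested, while the size of the ratio depended on the probe set.

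Cpm stood beside the apolipoprotein gene Apoc3 (4.86) and the retinaldehyde dehydrogenase gene Aldh1a1 (4.21) in the order of DEX minus control differences. Its place depends on the offset added before the log: it was the third with 16 or 64 and rank 2, ahead of Apoc3, with 1. Cpm holds these places on its brighter probe set, and the difference on the dimmer one, given below, was smaller. Its brighter probe set (1429413_at) read 1413, 1279 and 1537 in DEX, against 31.4, 36.1 and 34.1 in TNF, 31.6 and 28.3 in CI, and 34.7, 35.7 and 29.5 in control. The means were 1409 ± 129 in DEX and 33.3 ± 3.33 in control (SD, n = 3 each), a ratio of 42.3 and a log2 difference of 4.85. The lowest DEX array was 35.5-fold above the highest other array.

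The dimmer Cpm probe set (1453009_at) read 242.4, 276.3 and 367.8 in DEX, 21.3, 27.2 and 22.4 in TNF, 26.8 and 25.2 in CI, and 22.7, 24.5 and 24.2 in control. Its ratio of means was 12.4 and its log2 difference 2.95. Without dexamethasone both Cpm probe sets lay below 51.8, the intensity under which a gene was treated as dim, so Cpm entered the tests only through the DEX arrays. The brighter probe set stands for the gene in the fits. The values used here hold no detection calls, and a ratio against so low a level depends on how the background was treated. Set against 51.8 in place of the control mean, the DEX mean of the brighter probe set was 27.2-fold higher. All 3 Fam107a probe sets averaged above that limit in the arrays without dexamethasone.

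**Figure D1:**
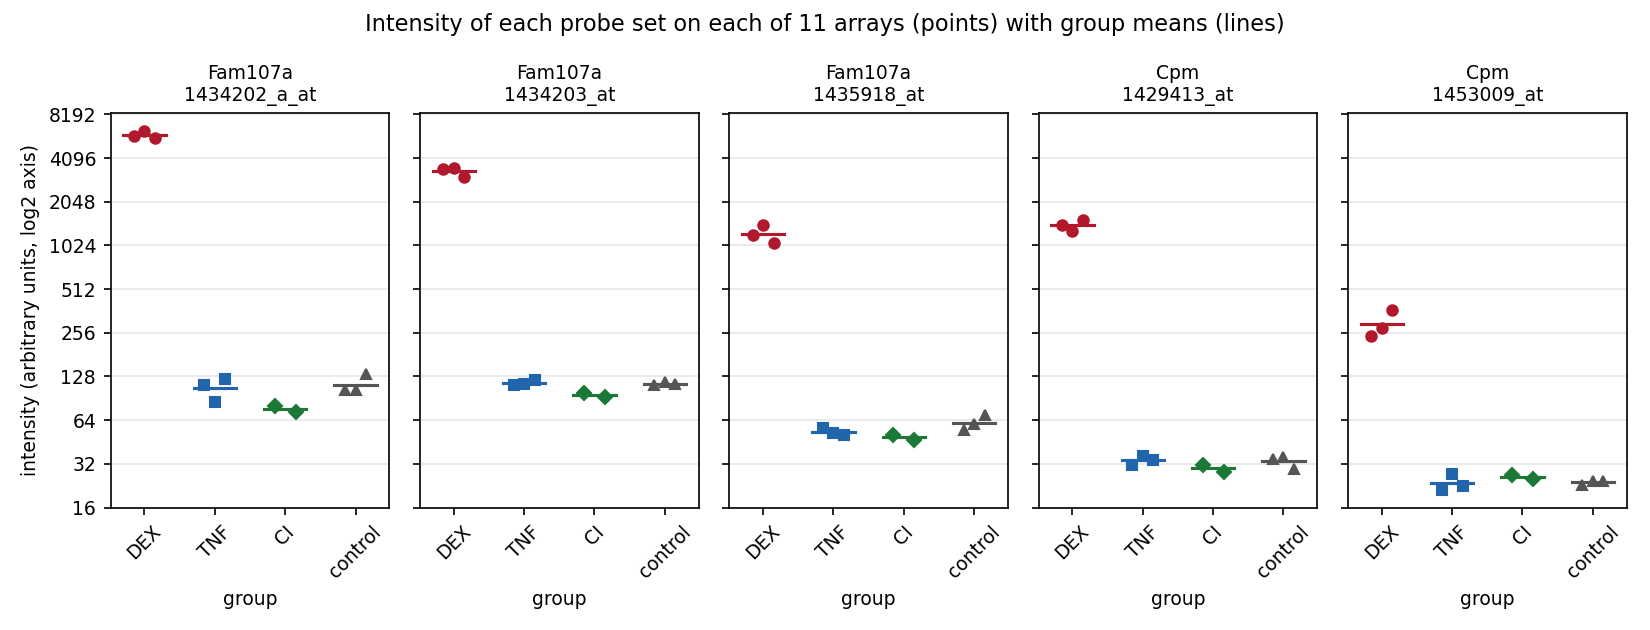
Intensity (log2 axis, arbitrary units) of the 3 Fam107a and 2 Cpm probe sets on each array, by group, with lines at group means. The DEX arrays of the brightest Fam107a probe set lie at 5666 to 6301 and those of the brighter Cpm probe set at 1279 to 1537, and in every panel they are above all 8 other arrays.

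The DEX arrays did not rank in the same way for both genes. DEX replicate 3 was the lowest of the 3 for every Fam107a probe set and the highest for both Cpm probe sets. With 3 arrays this is a description only. The spread among DEX arrays was small beside the distance to control: the SD of the log2 values was 0.0783 for the brightest Fam107a probe set and 0.131 for the brighter Cpm probe set, and it was widest, at 0.292, for the dimmer Cpm probe set.

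The comparisons of TNF and CI with control, which share the control arrays, asked whether the other treatments, presented in the labels like dexamethasone as models of insulin resistance, also moved these genes. Fam107a was lower in CI. On the brightest probe set it averaged 76.8 ± 5.24 in CI (SD, n = 2), against 112.6 ± 17.0 in control (SD, n = 3), a log2 difference of -0.46 (SE 0.118, adjusted p = 0.0132, limma with Benjamini-Hochberg adjustment over all genes). Over all genes 17.3% passed in CI and 8.88% passed as lower. The call was lost without CI replicate 2 (-0.41, adjusted p = 0.107), where the single CI array left takes its spread from the other groups.

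The decrease was smaller on the other Fam107a probe sets. Probe set 1434202_a_at stands for the gene because it was brightest over all 11 arrays, which the DEX arrays decide. Over the 8 arrays without DEX, 1434203_at was brighter, with a mean of 110.3 against 101.4. Probe set 1434203_at averaged 96.1 ± 4.35 in CI and 114.4 ± 2.45 in control, a difference of -0.22 (SE 0.0697, adjusted p = 0.0560, limma over all probe sets). Probe set 1435918_at averaged 48.8 ± 2.42 in CI and 61.4 ± 7.05 in control, a difference of -0.25 (SE 0.103, adjusted p = 0.138). Its CI arrays, at 50.5 and 47.1, both lay under the dim limit of 51.8. In 3 of 3 probe sets both CI arrays lay below every control array, as they did for 19.3% of all probe sets tested, and 1 of the 3 passed as lower, against 6.45% of all probe sets. The CI arrays also had lower hybridization spikes: the 18 spike probe sets, which report on the array procedure and not on the cells, had a median log2 difference of -0.23 from control in CI, -0.07 in TNF and -0.05 in DEX. Of 11 tested preadipocyte and fibroblast markers, 5 also fell and 0 rose in CI, where 8.88% of all genes passed as lower and 8.38% as higher. Their summed intensity was 59166 to 62674 in CI, against 66504 to 79194 in control. The part of these shifts in the Fam107a difference was not tested.

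Fam107a in TNF overlapped control on every probe set. The brightest averaged 106.5 ± 19.1 in TNF and 112.6 ± 17.0 in control (SD, n = 3 each), a log2 difference of -0.07 with a 95% interval of -0.30 to 0.15 (adjusted p = 0.643, limma). The interval leaves room for a modest change in either direction. Fam107a was higher in TNF than in CI by 0.39 (SE 0.118, adjusted p = 0.0177), where 18.9% of all genes passed as higher. In 3 of 3 probe sets every TNF array lay above both CI arrays, as for 24.4% of all probe sets, and 2 of the 3 passed, against 15.5%. On the third, 1435918_at, this rests on a near tie of TNF replicate 3 (50.498) and CI replicate 1 (50.496). Its difference was 0.09 (SE 0.103, adjusted p = 0.526, limma over all probe sets). The gene's call was lost without CI replicate 2 (0.33, adjusted p = 0.132), without TNF replicate 1 (0.35, adjusted p = 0.0577) or without TNF replicate 3 (0.30, adjusted p = 0.0674).

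**Figure D2:**
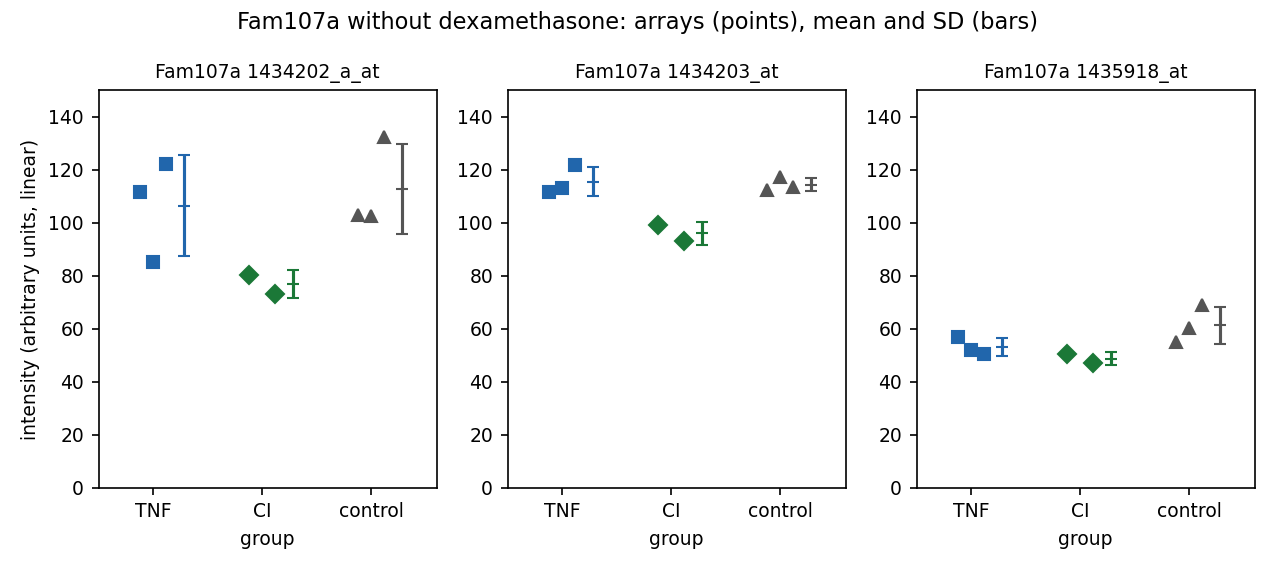
Intensity (linear axis from 0, arbitrary units) of the 3 Fam107a probe sets in TNF, CI and control arrays, as single arrays (points) with the mean and SD (bars). Both CI arrays lie below every control array in each panel, at 73.1 and 80.5 against 102.7 to 132.3 on the brightest probe set, while TNF and control overlap.

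No test is read for Cpm between the groups without dexamethasone, because the gene entered the fit only through the DEX arrays and was dim in the others. Its brighter probe set averaged 33.9 ± 2.33 in TNF (n = 3), 29.9 ± 2.36 in CI (n = 2) and 33.3 ± 3.33 in control (SD, n = 3). The log2 difference from control was 0.02 in TNF and -0.10 in CI, and the arrays of the 3 groups overlapped. On the dimmer probe set both CI arrays lay above every control array, as for 22.9% of all probe sets, with a difference of 0.08. At so low a signal a fall could hardly be seen. In order of level, the brightest Fam107a probe set ran DEX, control, TNF, CI and the brighter Cpm probe set DEX, TNF, control, CI. Control and TNF overlapped in both genes, and on that Cpm probe set the CI arrays overlapped with them as well.

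Over all 11 arrays the log2 values of Fam107a and Cpm had a Pearson r of 0.996. This reflects the 3 DEX arrays against the 8 others, and over those 8 arrays r was 0.11. With the pair itself left out, 11 genes had r above 0.99 with Fam107a and 8 with Cpm. Above 0.95 there were 117 and 115. The 8 closest to Fam107a were Apoc3 (0.996), the prostaglandin D synthase gene Ptgds (0.996), the phagocytic receptor gene Mertk (0.996), the dynactin subunit gene Dctn3 (0.995), Fkbp5 (0.994), the kinase gene Map3k6 (0.992), Ear3 (0.992) and the glutathione transferase gene Gsta3 (0.991). The 8 closest to Cpm were Apoc3 (0.997), Fkbp5 (0.995), Mertk (0.993), Ptgds (0.992), the calcium sensor gene Stim1 (0.992), Gsta3 (0.992), Ccdc71l (0.991) and Dctn3 (0.9904).

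These genes shared the shape of the profile and not its size. Apoc3 read 3651, 3889 and 4408 in DEX, 91.6, 86.4 and 99.9 in TNF, 101.2 and 104.0 in CI, and 111.2, 126.6 and 125.2 in control, while Dctn3 differed from control in DEX by only 1.06 on the log2 scale. Ear3 lay at 11.5 to 16.4 in the arrays without dexamethasone and at 380.6, 683.2 and 386.7 in DEX. Over the 8 arrays without DEX the genes closest to Fam107a were Guk1 (0.965), Nudt17 (0.955), B3gntl1 (0.9505) and Chic1 (0.948), and those closest to Cpm were Stim1 (0.964), 4930592A05Rik (0.909), Fmo1 (0.897) and Rundc1 (0.889). Stim1 stood in both lists for Cpm. A gene as dim as Cpm without dexamethasone gives such an r little weight.

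Genes known from other tissues to rise with glucocorticoids were set beside the pair. The list was chosen with earlier results of these data known, so its counts are a description. Of 30 tested, 25 rose and 2 fell in DEX, where 14% of all genes passed as higher and 13.6% as lower. Their median log2 difference was 0.82, against 0.02 over all genes tested. Fkbp5, a co-chaperone that restrains the receptor, averaged 8045 ± 83.1 in DEX and 1214 ± 59.5 in control (SD, n = 3 each), a difference of 2.71 (SE 0.0579, adjusted p = 6.65e-14, limma). Mertk rose by 2.57 (SE 0.0836), the metabolic kinase gene Pdk4 by 2.70 (SE 0.130) and Errfi1, an inhibitor of the EGF receptor, by 2.38 (SE 0.112). Tgm2, a transglutaminase gene, fell by 1.03 (SE 0.102) and the transcription factor gene Klf15 by 0.38; both are named because they were the exceptions.

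In the other treatments the list did not move one way. In TNF 5 of 30 rose and 5 fell, where 13.9% of all genes passed as higher and 11.3% as lower, and the median was -0.02. Cebpd (1.24), the metallothionein gene Mt2 (1.10) and Nfkbia (0.75) rose in TNF, and Lpin1 (-0.78) fell. In CI 8 rose and 6 fell, with a median of -0.02, where 8.38% of all genes passed as higher and 8.88% as lower. Dusp1 (1.16), Klf15 (0.66) and Anxa1 (0.41) rose in CI and the sulfotransferase gene Sult1a1 fell by 1.10.

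**Figure D3:**
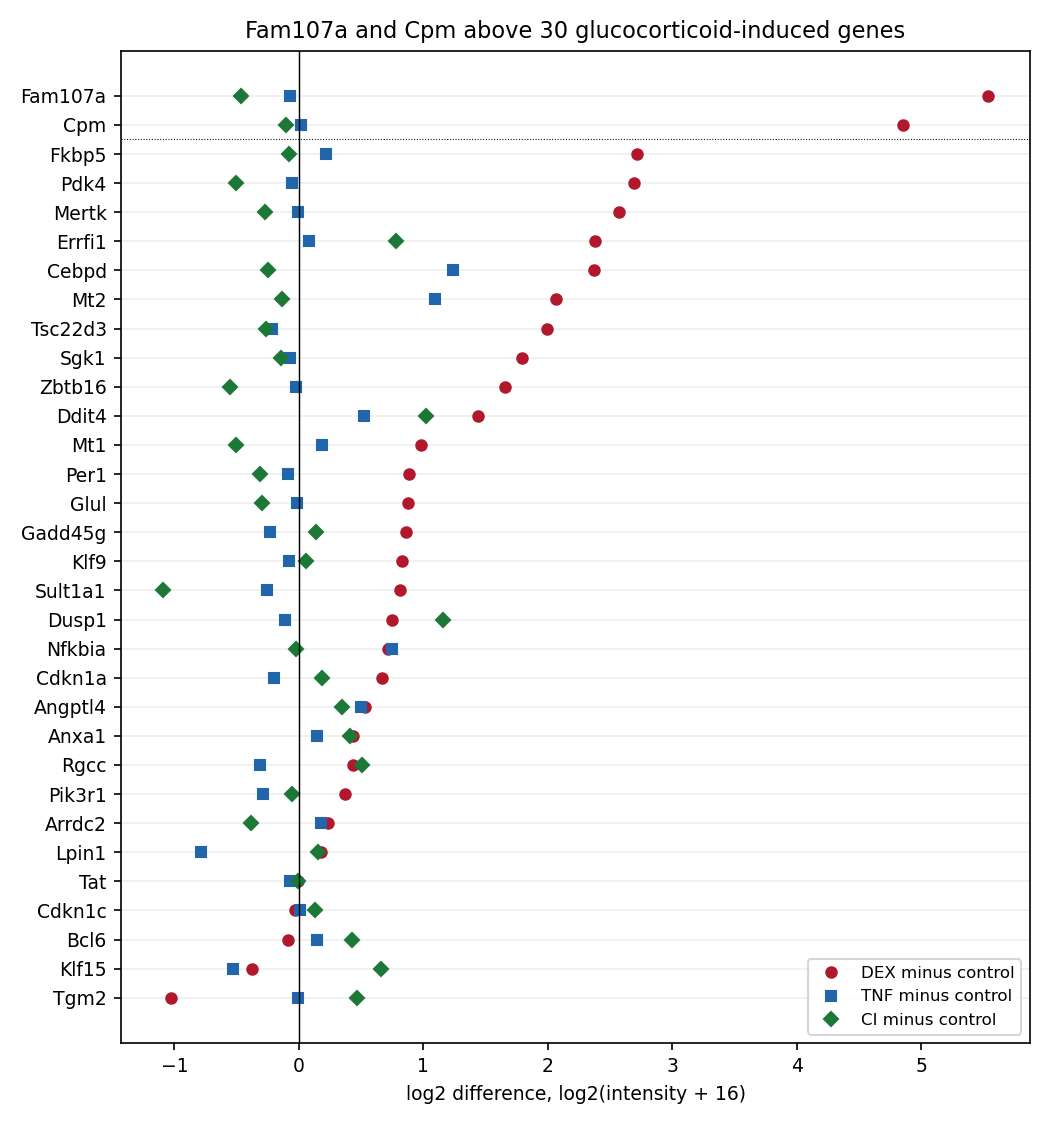
DEX, TNF and CI minus control differences of log2(intensity + 16) for Fam107a and Cpm (above the dotted line) and for 30 glucocorticoid-induced genes in order of their DEX difference. The pair lies at 5.54 and 4.85 in DEX and the highest list gene, Fkbp5, at 2.71, while the TNF and CI points of the pair lie between -0.46 and 0.02.

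The receptor itself was lower in DEX. Nr3c1, which encodes the glucocorticoid receptor, averaged 1654 ± 45.3 in DEX and 2332 ± 94.7 in control (SD, n = 3 each), a difference of -0.49 (SE 0.0573, adjusted p = 1.02e-05, limma). Hsd11b1, whose enzyme regenerates active glucocorticoid inside cells, fell in DEX by 0.59 (SE 0.0955) and in TNF by 0.61 (SE 0.0955), and rose in CI by 0.37 (SE 0.107). H6pd, which supplies the cofactor of that enzyme, rose in DEX by 0.70 (SE 0.0939), and Hsd11b2 rose by 0.26. Of 11 tested genes of the receptor, its enzymes and chaperones, 2 rose and 2 fell in DEX, against 14% and 13.6% of all genes. In TNF 2 rose and 3 fell, against 13.9% and 11.3%. In CI 3 rose and 2 fell, against 8.38% and 8.88%. With counts this small, the shares in DEX lie near those of all genes, and the TNF and CI counts are descriptions only.

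Cpm belongs to the M14 metallocarboxypeptidases, and none of its relatives rose in DEX. Of 12 others tested 8 fell and 0 rose, with a median of -0.25, against a background of 13.6% lower. Aebp1, a matrix-associated member, fell by 0.51 (SE 0.0698, adjusted p = 5.58e-05, limma), to 385.3 ± 24.4 in DEX, against 553.5 ± 31.5 in control. Cpxm1 (-0.45), Cpa6 (-0.40), Cpz (-0.39), Cpb1 (-0.28), Cpa1 (-0.26), Cpe (-0.23) and Cpd (-0.18) fell as well. Cpxm2 (-0.12), Cpa4 (-0.10), Cpa5 (-0.10) and Cpa3 (-0.07) did not pass. Several of these probe sets were dim: with the filter at the median only 3 were tested, and all 3 fell.

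Some relatives of Cpm passed the test in the other treatments. Cpe, which trims prohormones, averaged 4912 ± 143 in TNF (n = 3), 1829 ± 183 in CI (n = 2) and 2885 ± 148 in control (SD, n = 3). It rose in TNF by 0.77 (SE 0.0627) and fell in CI by 0.66 (SE 0.0701). Aebp1 rose in TNF by 0.71 and fell in CI by 0.34, and Cpa1 rose in TNF by 0.29 and fell in CI by 0.32. In all, 3 rose and 2 fell in TNF (Cpz by 0.37 and Cpb1 by 0.23), where 13.9% of all genes passed as higher and 11.3% as lower. In CI 0 rose and 4 fell, the last being Cpxm1 (-0.23), where 8.38% of all genes passed as higher and 8.88% as lower. Cpn1 was under the dim filter and was not tested.

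**Figure D4:**
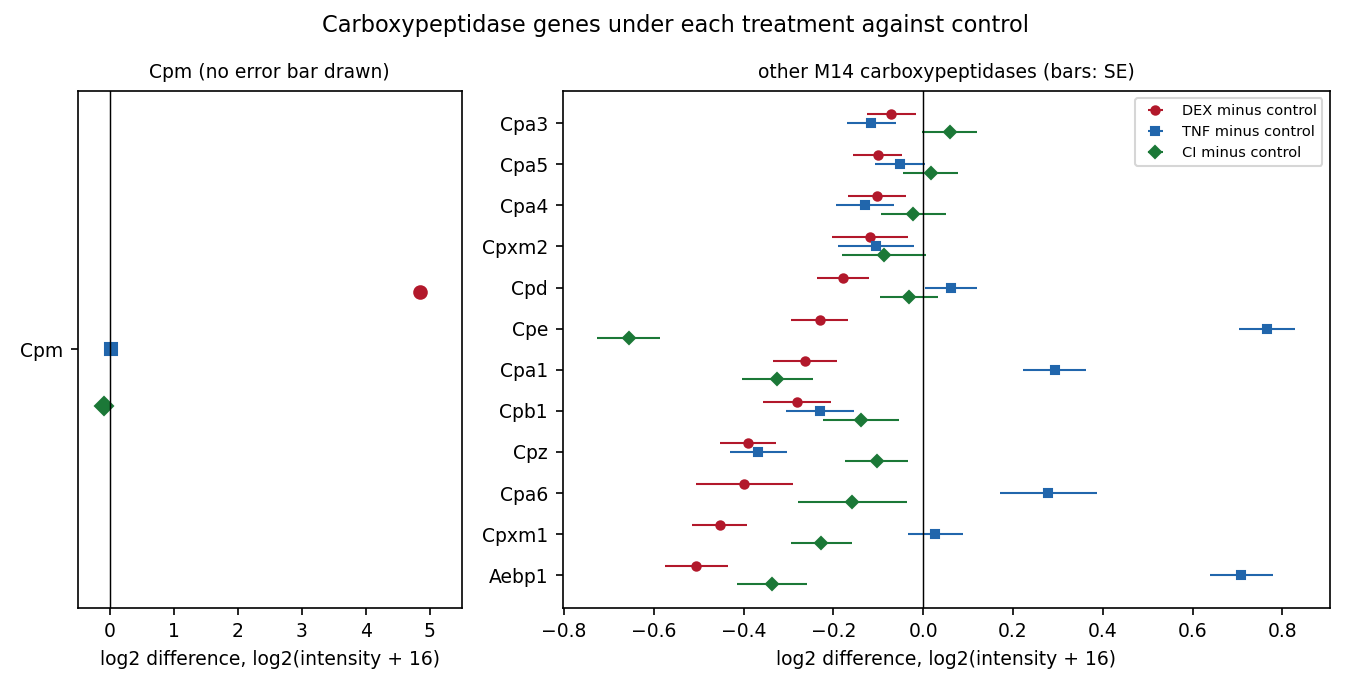
Differences of log2(intensity + 16) from control in DEX, TNF and CI for Cpm (left panel, no error bar) and for the 12 other M14 carboxypeptidases tested (right panel, bars are SE), with separate scales. Cpm lies at 4.85 in DEX, while the DEX points of the other genes lie between -0.51 and -0.07.

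The kinin system, which holds substrates and receptors linked to carboxypeptidase M, showed few calls. Of 12 tested kinin genes and surface peptidases, 0 rose and 1 fell in DEX, and the one that fell was Xpnpep2, an aminopeptidase gene, by 0.16 (adjusted p = 0.0393, limma), a share no higher than the 13.6% of all genes. The kinin receptor genes Bdkrb1 (0.02) and Bdkrb2 (-0.03) did not pass in DEX. In TNF Klkb1, which encodes plasma kallikrein, fell by 0.18, and the angiotensin-converting enzyme gene Ace fell by 0.18, where 11.3% of all genes passed as lower. In CI 0 of the 12 passed, where 17.3% of all genes passed. With so few genes these counts are descriptions only. Enpep, an aminopeptidase gene left out of the tests as dim, read 27.9 ± 2.49 in DEX, 30.9 ± 5.0 in TNF, 137.3 ± 2.83 in CI and 37.2 ± 3.83 in control (SD). This gene was singled out after its values were seen.

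Fam107b, the one close relative of Fam107a, fell slightly in DEX. Its brightest probe set read 696.2, 650.2 and 707.2 in DEX, against 893.1, 833.6 and 805.7 in control, with every DEX array below every control array, as for 18.7% of all genes. The difference was -0.30 (SE 0.0583, adjusted p = 0.00132, limma). The other Fam107b probe sets gave -0.26 (adjusted p = 0.0690) and -0.22 (adjusted p = 0.0154) in the fit over probe sets. In TNF (-0.03) and CI (0.04) the gene did not pass.

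Because the Fam107a protein binds actin, genes of actin bundles and stress fibres were counted. In DEX 7 of 29 tested fell and 1 rose, with a median of -0.04, where 13.6% of all genes passed as lower and 14% as higher. Myl9, a myosin light chain gene, fell in DEX by 0.73 (SE 0.0625), Cnn3, an actin-binding calponin gene, by 0.45, Pdlim7 by 0.53 and the actin-bundling gene Fscn1 by 0.50 (SE 0.0754). In TNF 17 rose and 0 fell, with a median of 0.24, where 13.9% of all genes passed as higher. Tagln2 (1.24), the smooth muscle actin gene Acta2 (0.94), Actn1 (0.59) and Tpm4 (0.59) rose in TNF, in the same arrays in which Fam107a overlapped control. In CI 3 rose and 7 fell, among them Myl9 (-0.67), Cnn2 (-0.66) and Acta2 (-0.63), against 8.38% of all genes higher and 8.88% lower.

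Genes next to Fam107a and Cpm on the chromosome differed from control in DEX by 0.38 or less upward, on the log2 scale. Beside Fam107a, the nearest genes on the array were Acox2, a peroxisomal oxidase gene 37251 bases away (0.14 in DEX, adjusted p = 0.243), and Oit1, 31330 bases away (0.03, adjusted p = 0.696). Of 7 tested neighbours 1 passed in DEX, Pxk (0.38, adjusted p = 0.00237), a share near the 14% of all genes that passed as higher, and Pdhb (-0.12), Kctd6 (0.16), Cfap20dc (-0.10) and Fhit (0.04) did not. In TNF Acox2 rose by 0.36 and Pdhb, a subunit gene of pyruvate dehydrogenase, fell by 0.78. In that comparison 13.9% of all genes passed as higher and 11.3% as lower. None of the 7 passed in CI, where 17.3% of all genes passed, and with so few genes this count says little. Ptprg was under the dim filter.

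Mdm2, whose protein degrades p53, lies 1523 bases from Cpm. It averaged 15540 in DEX and 14920 in control, a difference of 0.06 with an adjusted p of 0.418. Of 7 tested neighbours of Cpm, Slc35e3 (0.26) and Nup107 (0.24) rose in DEX and the lysozyme genes Lyz2 (-0.62) and Lyz1 (-0.72) fell, where 14% of all genes passed as higher and 13.6% as lower. Lyz1 and Lyz2 are near-identical copies whose signals cannot be separated with certainty. Cpsf6 (0.05) and Rap1b (0.02) did not pass in DEX, and 9530003J23Rik was under the dim filter. The largest neighbour difference in DEX was thus -0.72, beside 4.85 for Cpm.

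**Figure D5:**
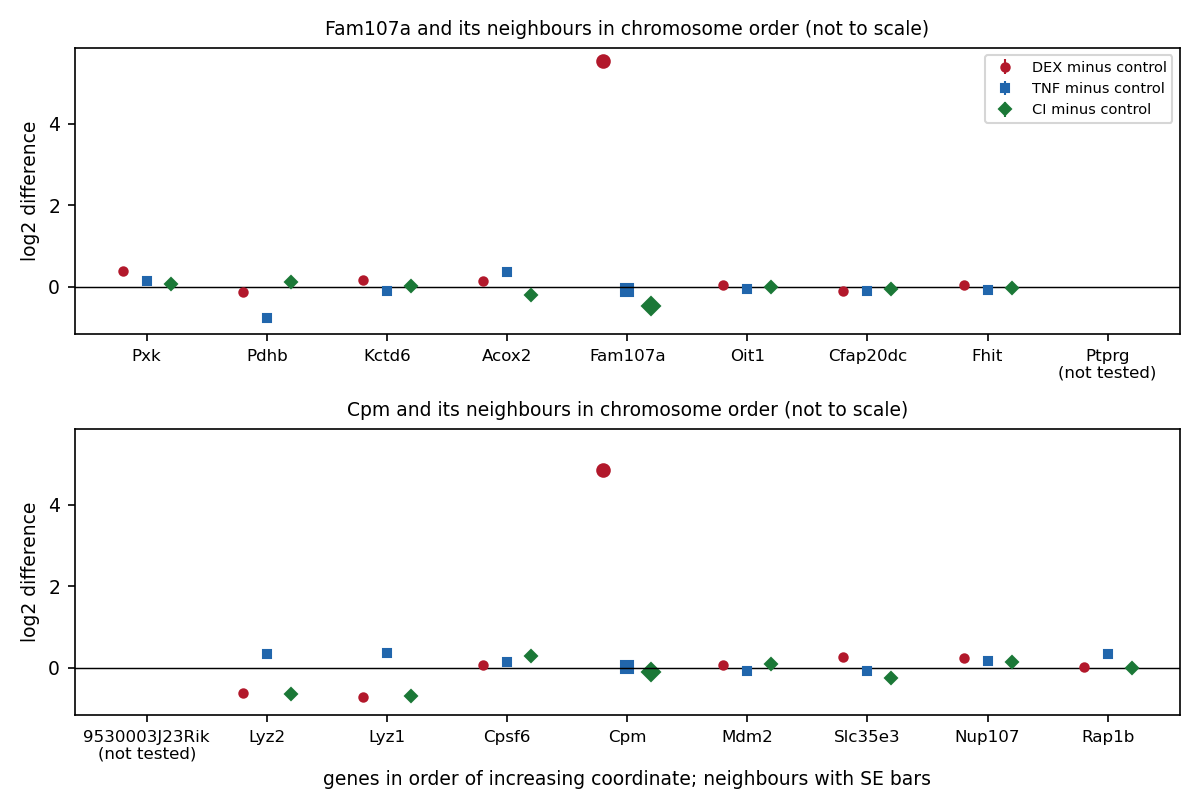
Differences of log2(intensity + 16) from control in DEX, TNF and CI for Fam107a and Cpm (larger symbols) and up to 4 genes on either side in chromosome order, with SE bars on the neighbours that are mostly hidden by the symbols. Fam107a and Cpm lie at 5.54 and 4.85 in DEX, while their tested neighbours lie between -0.72 and 0.38.

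Macrophage markers, listed because CPM marks macrophages in human cells, were measured beside it. Of 8 tested, Mpeg1 (-1.67), Itgb2 (-0.96) and Lyz2 (-0.62) fell in DEX and the endotoxin co-receptor gene Cd14 rose (0.90), where 13.6% of all genes passed as lower and 14% as higher. In TNF 3 of the 8 rose and 0 fell, against 13.9% and 11.3% of all genes, and in CI 1 rose and 2 fell, against 8.38% and 8.88%. The summed intensity of the 12 markers on the array was 3364 to 3859 in DEX, 6121.5 to 6586.8 in TNF, 3949 to 4271 in CI and 4713 to 4900 in control. Lyz2, at 1513 in DEX and 2325 in control, and Mpeg1, at 263.0 in DEX and 874.7 in control, weigh heavily in this sum. How these markers relate to the Cpm level was not tested. No marker was at 0 on any array. The leukocyte gene Ptprc read 24.0 to 24.4 in DEX and 24.1 to 26.5 in control, and Cd163 read 16.2 to 17.9 in DEX and 15.3 to 19.0 in control. Both, like Itgam and Mrc1, were under the dim filter.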

How the data were processed

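The authors deposited linear intensity values of 45101 probe sets on 11 Affymetrix arrays, made per the labels' protocols from 3 µg of total RNA. Background correction, summarisation and normalization are not given in the sources used here. There were 0 value columns of no sample. The log2 quartiles differed by at most 0.0765 between arrays, under the limit of 0.1 for further scaling, so none was applied. The 64 control probe sets were left out. Of the rest, 34945 had 1 symbol, 932 several and 9160 none in the platform annotation, and 34741 were matched by gene identifier. The probe set with the highest mean stood for a gene. The dim filter, at the 25th percentile of probe set means (51.8), left 15622 genes and 33778 probe sets in the probe set fit.

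Values were tested as log2(intensity + 16) with limma 3.58.1 in R 4.3.3 (a mean per group over all 11 arrays, eBayes, two-sided, 7 residual and 7.59 prior degrees of freedom). Passing means a Benjamini-Hochberg adjusted p under 0.05. The fit was tested on simulated data. The number of arrays limits the precision. The members and lists were chosen with earlier results of these data known. Text examples are mainly the members' probe sets, paralogues, neighbours on the chromosome and in the DEX ranking, most alike genes and up to 4 list members with the smallest adjusted p. Alternatives covered the offset, filter, probe set choice, scaling, samples, eBayes trend, replicate block and leaving out each array.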

Additional observations from a re-analysis of the deposited data

How the results depend on the processing

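The DEX minus control difference of Fam107a (5.54) was 5.09 with an offset of 64 and 4.74 with the mean of all probe sets, and leaving out single arrays gave 5.49 to 5.65. That of Cpm (4.85) was 5.36 with an offset of 1, 3.92 with an offset of 64 and 3.90 with the mean of all probe sets, and 4.79 to 4.92 without single arrays. The offset sets how far a dim control value is compressed, and the dimmer probe sets have smaller differences. Leaving out single arrays, Fam107a lay at -0.52 to -0.36 in CI minus control and at 0.30 to 0.52 in TNF minus CI; the losses of the call are given above. In TNF minus control, Fam107a turned sign without control replicate 3 (0.032) or TNF replicate 2 (0.056), in a range of -0.17 to 0.056. Fam107a passed in none of these fits. Cpm turned sign without the same arrays (-0.038 and -0.013), in a range of -0.038 to 0.054, and for Cpm no test is read. The genes past the threshold in CI numbered 2696, and 1431 without CI replicate 1 (1431 to 3045 over single arrays). A filter on the 8 arrays without DEX, chosen after seeing the data, left Cpm untested. Deviations of same-numbered arrays correlated from -0.287 to 0.341, with 6 of 15 pairs above 0.1. With so few arrays per group this cannot settle whether the numbers pair the arrays, and the main fit used no pairing. With the replicate block Fam107a was at -0.41 in CI minus control (adjusted p = 0.0202) and 0.33 in TNF minus CI (adjusted p = 0.0287), and no call on Fam107a changed. Among the lists, carboxypeptidases lower in DEX were 3 in place of 8 with the filter at the median and lower in CI 2 in place of 4 with that filter or without CI replicate 1 or 2, fibroblast markers lower in TNF were 5 in place of 2 with the mean of all probe sets, glucocorticoid-induced genes lower in TNF were 2 in place of 5 without TNF replicate 2, and receptor genes higher in TNF were 0 in place of 2 with quantile normalization or without control replicate 2 or 3, and 1 with the mean of all probe sets or without any 1 TNF array. Macrophage markers lower in CI were 4 in place of 2 without CI replicate 2, and the other list counts of 0 to 3 moved by at most 2. Low signal limits Cpm, whose level without dexamethasone was dim on both probe sets.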
